A study of Homo sapiens with 12 samples.

Results

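Thrombospondins and other synapse-inducing factors that astrocytes secrete were followed through a knockdown of ZCCHC17 in human neuron cultures. The set held 10 genes, taken by symbol from the 59653 rows of the authors' count table: THBS1, THBS2, THBS3, THBS4, COMP, CACNA2D1, SPARC, SPARCL1, GPC4 and GPC6. All 10 were found and all 10 passed the filter on low counts, as did 24671 genes in all. The genes were chosen by name with their fold changes and adjusted p-values between knockdown and control already known, so those differences are given as a description, with no p-values.

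Thrombospondins are large secreted matrix glycoproteins that astrocytes release and that induce excitatory synapses by binding the calcium channel subunit alpha2delta-1, the product of CACNA2D1 and the receptor of gabapentin. THBS1 and THBS2 carry type 1 repeats, which THBS3, THBS4 and COMP (cartilage oligomeric matrix protein) lack. SPARCL1, also called hevin, bridges adhesion proteins across the synaptic cleft, and SPARC, its close relative, is known to oppose it. The glypicans GPC4 and GPC6 are cell-surface heparan sulfate proteoglycans that astrocytes shed and that bring AMPA-type glutamate receptors to the synapse.

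Total RNA was sequenced from neurons made from induced pluripotent stem cells of IMR-90, a fetal lung fibroblast line. In 6 libraries the cells had received a negative control siRNA (siNC) and in 6 an siRNA against ZCCHC17 (siZCC). All 12 come from a single line, no genotype, time or further agent is given in the labels, and nothing says whether replicates were separate cultures, so the spread between them may be technical. Levels are CPM, counts scaled to a common library size with edgeR's TMM factors.

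The siNC libraries held 90755953 to 120023356 counts each and the siZCC libraries 76115083 to 105389055. ZCCHC17 checked the labels, with 5255 to 7222 counts per siNC library and 727 to 1115 per siZCC library. The labels call the cells neurons, and the titles carry the letters NPC without saying what they stand for. Neuronal transcripts such as DCX were abundant (649 ± 41.8 CPM in siNC, SD, n = 6), but so was the astrocyte filament gene GFAP (616 ± 82.0 CPM). The proliferation marker MKI67 stood at 205 ± 16.8 CPM. RBFOX3, a marker of mature neurons, reached only 1.27 ± 0.148 CPM, and the neuron marker TUBB3 14.2 ± 0.629 CPM. The summed level of 8 radial glia and progenitor markers was 5677 to 6068 CPM in siNC, led by VIM (3550 ± 109 CPM) and NES (1118 ± 58.8 CPM). That of 10 neuron markers was 2783 to 3201 CPM and that of 12 astrocyte markers 2332 to 2625 CPM. Microglial genes were near 0, with at most 15 counts of AIF1, CX3CR1, P2RY12 or C1QA in any library, as were the oligodendrocyte gene SOX10 (at most 8 counts) and the endothelial gene CDH5 (at most 17). In 6 libraries, 3 per group, IL1B had 449 to 1512 counts, against 2 to 12 in the other 6. In bulk RNA, fewer cells of a type and less RNA per cell cannot be told apart.

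Per length of exon (RPKM, here CPM per kilobase of GENCODE v29 exon, merged over all transcripts of a gene), SPARCL1 and SPARC were far above the rest. In siNC, SPARCL1 stood at 302 ± 10.96 and SPARC at 294 ± 13.95 RPKM (SD, n = 6), and their ranges over libraries overlapped. GPC4 followed at 24.4 ± 2.88, THBS3 at 13.3 ± 1.21, THBS1 at 11.2 ± 3.17 and GPC6 at 10.3 ± 0.699 RPKM, and the ranges of THBS1 overlapped those of both THBS3 and GPC6. THBS2 and THBS4 were alike in siNC, at 5.60 ± 0.677 and 5.53 ± 0.287 RPKM. CACNA2D1 stood at 2.78 ± 0.446 RPKM. COMP, the cartilage member, was barely detected, at 0.0435 ± 0.0100 RPKM and 8 to 21 counts per library. In siZCC the order of the means was the same except for THBS2 and THBS1. THBS2, at 12.3 ± 0.999 RPKM, had moved from the seventh place to the fifth and THBS1, at 7.08 ± 2.55 RPKM, from the fifth to the seventh. These siZCC places were not clear-cut. The range of THBS1 (4.52 to 10.9) spanned that of THBS4 (6.56 to 7.23), with medians of 6.80 and 6.81. The range of THBS2 (11.2 to 13.9) overlapped those of GPC6 (11.3 to 12.3) and THBS3 (13.4 to 15.9).

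Between the groups, 5 of the 10 genes passed an adjusted p of 0.05 (edgeR's quasi-likelihood test, Benjamini-Hochberg over all genes), 4 higher and 1 lower in siZCC. Of all genes, 22.2% passed, 11.4% higher and 10.8% lower. The groups did not overlap in 4 of the 10, all higher in siZCC; of all genes 9.74% did not overlap, 5.25% higher and 4.5% lower. Since these differences were known when the genes were chosen, nothing is read from the shares. The median log2 fold change of the 10 was 0.09, against -0.0016 over all genes.

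**Figure D1:**
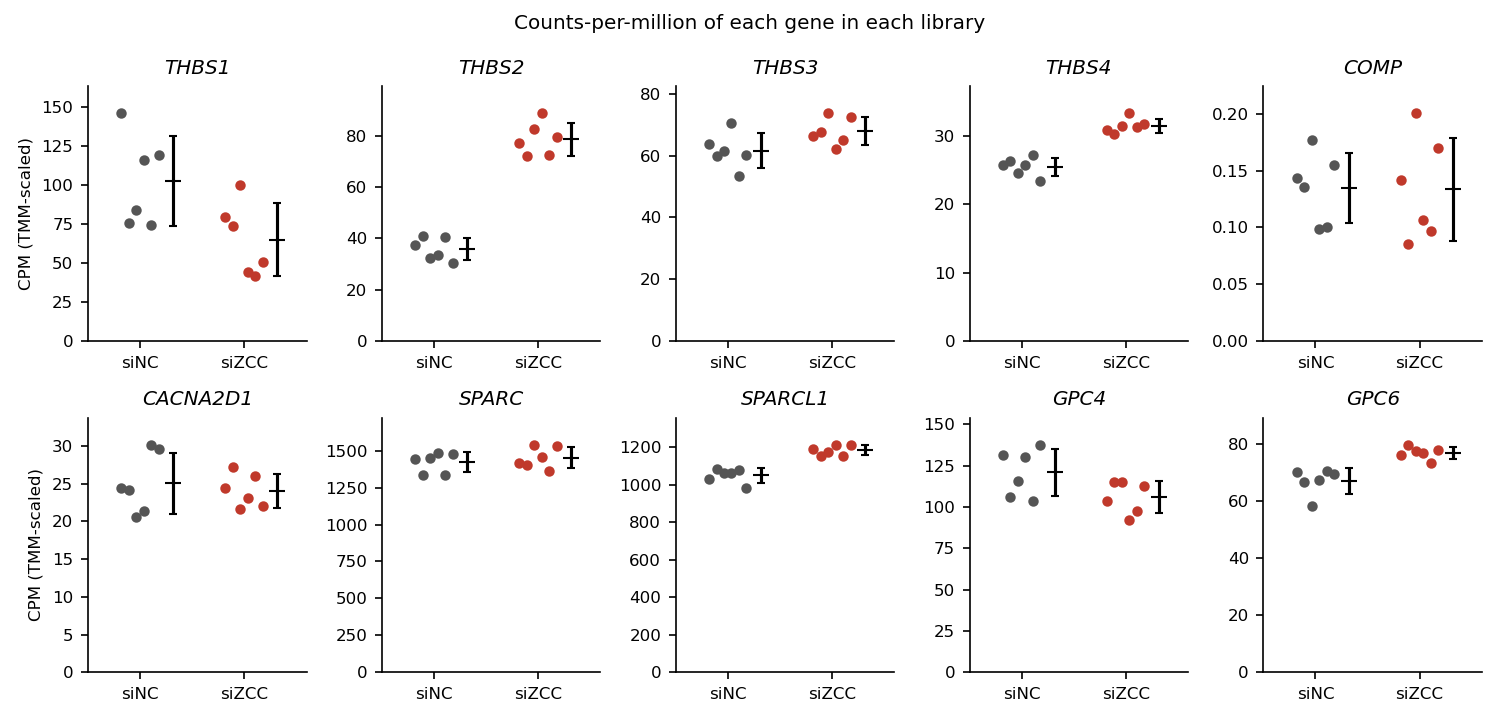
TMM-scaled CPM of each gene in each of the 6 siNC (grey) and 6 siZCC (red) libraries, with the mean and SD beside the points; each vertical axis starts at 0 and has its own scale. The groups are fully apart for THBS2, THBS4, SPARCL1 and GPC6, and THBS1 has the widest scatter of the abundant genes, 41.4 to 146 CPM.

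The 2 thrombospondins with type 1 repeats moved in opposite directions. THBS2 (ENSG00000186340, chr6:169215780-169254044 of GRCh38, minus strand), known as an inhibitor of angiogenesis, ran from 30.6 through a median of 35.3 to 40.9 CPM in siNC and from 72.1 through 78.3 to 88.9 CPM in siZCC. Every siZCC library lay above every siNC library by a wide margin. Its log2 fold change was 1.13 (SE 0.0698, 95% interval 0.99 to 1.28). It was 1.19 among the 6 libraries with high IL1B and 1.07 among the 6 with low IL1B.

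THBS1 (ENSG00000137801, chr15:39581079-39599466, plus strand), an activator of latent TGF-beta, ran from 74.1 through a median of 99.8 to 146 CPM in siNC and from 41.4 through 62.3 to 100.1 CPM in siZCC. The groups overlapped: siZCC replicates 1, 2 and 3 (79.3, 73.8 and 100.1 CPM) lay within or at the edge of the siNC range, and replicates 4, 5 and 6 (43.8, 41.4 and 50.8 CPM) lay below it. The log2 fold change was -0.66 (SE 0.207, 95% interval -1.09 to -0.22). Replicate spread was wide, with a biological coefficient of variation (BCV) of 24.8%, higher than in 95.9% of the genes tested, against 8.44% for THBS2. The call was lost with DESeq2's Wald test and when any of siNC replicates 1, 4 or 6 or siZCC replicates 4, 5 or 6 was left out, with log2 fold changes of -0.66, -0.53, -0.62, -0.61, -0.57, -0.56 and -0.60 in that order. It was also not passed within the 6 libraries of high IL1B (-0.76) or the 6 of low IL1B (-0.58).

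Because these genes are paralogs, their coding sequences were compared to see whether reads could be credited to the wrong one. The longest coding sequences of THBS1 and THBS2 in GENCODE v29 were identical at 68.8% of 3466 aligned bases, and the longest stretch that they shared exactly was 29 bases, shown here in capitals with 15 bases on either side, from a coding exon of each (THBS1 chr15:39590561-39590619, plus strand; THBS2 chr6:169229576-169229634, minus strand; GRCh38).
THBS1: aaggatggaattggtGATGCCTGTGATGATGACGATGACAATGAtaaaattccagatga
THBS2: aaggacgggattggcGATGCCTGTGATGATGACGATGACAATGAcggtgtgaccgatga
Over the 10 pairs among the family's 5 members the longest shared stretch was 34 bases, between THBS4 (chr5:80079145-80079208, plus strand) and COMP (chr19:18784946-18785009, minus strand), again in capitals.
THBS4: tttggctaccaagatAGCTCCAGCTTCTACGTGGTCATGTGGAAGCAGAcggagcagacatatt
COMP: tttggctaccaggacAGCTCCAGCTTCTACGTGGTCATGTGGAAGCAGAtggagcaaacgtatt
A read longer than these stretches holds at least 1 base that differs between the coding sequences; the read length is not given in the sources used here.

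Promoter letters were read for the pair because they moved apart. Windows of 250 bases before each RefSeq start (GRCh38.p14) were searched on both strands for GGAATG (the TEAD core), TGANTCA (AP-1), GGGCGG (SP1) and the CArG box of SRF, and on the forward strand for TATAAA. All 10 genes matched the RefSeq promoter table, THBS3 and THBS4 with 2 starts each. The RefSeq start of THBS2 lies downstream of its GENCODE start, so its stretch below falls inside the gene positions given above. Part of each promoter is shown with the matches in capitals: THBS1 from 80 to 21 bases before its start (chr15:39580999-39581058, plus strand) and THBS2 from 110 to 81 bases before its start (chr6:169253927-169253956, minus strand).
THBS1: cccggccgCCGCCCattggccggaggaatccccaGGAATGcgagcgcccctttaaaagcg
THBS2: atgatgtCATTCCttcgaaGGAATGaatta
THBS1 held 1 match to the TEAD core and 4 to SP1, and THBS2 held 2 to the TEAD core, in opposite orientations, and a TATAAA 29 bases before its start. Of 35116 promoter windows, 11.9% held the TEAD core, 42.6% SP1 and 6.80% TATAAA. Neither window held AP-1 or a CArG box, which 6.57% and 1.16% of windows did. Other genes of the set held matches too. COMP and SPARC had 1 to the TEAD core each. CACNA2D1 had 3 to SP1, COMP and GPC4 2 each, THBS3 1 at each start and THBS4 1 at 1 of its starts. GPC6 and SPARCL1 had 1 TATAAA each, and SPARCL1 1 CArG box. These are matches of letters only.

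THBS4 (ENSG00000113296, chromosome 5), known from muscle, tendon and astrocytes, ran from 23.4 through a median of 25.7 to 27.2 CPM in siNC and from 30.2 through 31.4 to 33.3 CPM in siZCC. All siZCC libraries lay above all siNC libraries. The log2 fold change was 0.30 (SE 0.0371), well below that of THBS2.

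THBS3 (ENSG00000169231, chromosome 1), a little-studied family member, ran from 53.3 through 60.9 to 70.5 CPM in siNC and from 62.0 through 67.0 to 73.7 CPM in siZCC. The groups overlapped and the log2 fold change of 0.14 (95% interval 0.03 to 0.26) did not pass the adjusted threshold; it passed without siNC replicate 4 (0.18) or siZCC replicate 4 (0.17). Its gene shares 353 bases with MTX1 on the other strand, and whether counting used strand is not given. MTX1, a mitochondrial import gene, had a mean of 12.6 ± 0.404 CPM with the control siRNA and 12.9 ± 0.595 CPM after knockdown and did not pass (log2 fold change 0.04, SE 0.0406). COMP had 9 to 21 counts per siNC library and 8 to 18 per siZCC library, so that its log2 fold change of -0.02 came with a 95% interval of -0.55 to 0.51. A difference of moderate size was not detectable in it at this depth.

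**Figure D2:**
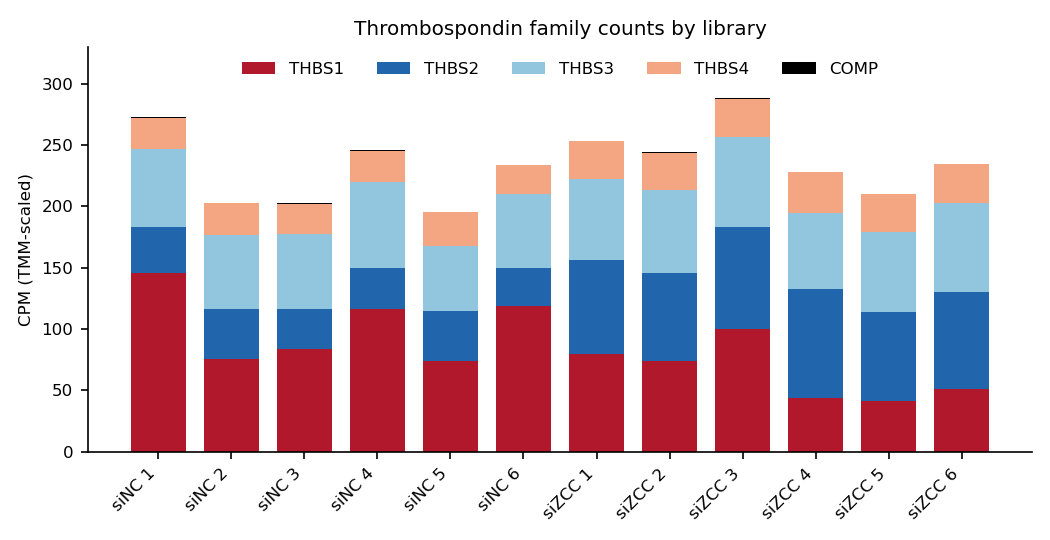
TMM-scaled CPM of the 5 thrombospondin family genes, not corrected for gene length, stacked for each of the 12 libraries. THBS1 took 37.3% to 53.5% of the family's CPM in siNC and 19.2% to 34.7% in siZCC, and THBS2 13.1% to 20.8% and 28.7% to 39.0%.

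The make-up of the family thus differed between the groups while its sum overlapped. The 5 genes together came to 225 ± 30.4 CPM in siNC (SD, n = 6, range 195 to 273) and to 243 ± 26.5 CPM in siZCC (range 210.2 to 288). The counts of THBS2 per count of THBS1 were 0.256 to 0.547 in siNC (mean 0.379 ± 0.136) and 0.826 to 2.03 in siZCC (1.35 ± 0.494), with no overlap. The share of THBS1 in the sum was 44.7% ± 6.85 in siNC and 26.1% ± 6.73 in siZCC, and the share of THBS2 was 16.2% ± 3.44 and 32.7% ± 3.86. These sums, ratios and shares are not corrected for length, which gives the longer THBS1 more weight. Exon lengths were 9158 bases for THBS1, 6412 for THBS2, 4623 for THBS3 and 4605 for THBS4. Per length THBS3 (13.3 RPKM), not THBS1 (11.2 RPKM), had the highest mean of the family in siNC.

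The thrombospondin receptor CACNA2D1 (ENSG00000153956, chromosome 7) did not pass. It ran from 20.6 through a median of 24.3 to 30.1 CPM in siNC and from 21.6 through 23.7 to 27.2 CPM in siZCC, with the siZCC values inside the siNC range. Its log2 fold change was -0.06, with a 95% interval of -0.24 to 0.13. None of its paralogs passed: CACNA2D2 was at -0.08 (95% interval -0.26 to 0.11), CACNA2D3 at -0.04 (-0.23 to 0.15) and the scarcely expressed CACNA2D4 at 0.14 (-0.26 to 0.54).

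SPARCL1 (ENSG00000152583, chromosome 4) ran from 980 through a median of 1061 to 1081 CPM in siNC and from 1153 through 1181 to 1212 CPM in siZCC. The groups did not overlap, and the log2 fold change was 0.17 (SE 0.0280). Its replicates were among the tightest, with a BCV of 3.93%, at the 8.09th percentile of the genes tested. SPARC (ENSG00000113140, chromosome 5) ran from 1336 through 1447 to 1483 CPM in siNC and from 1363 through 1437 to 1539 CPM in siZCC. The SPARC groups overlapped, with a log2 fold change of 0.03 and a 95% interval of -0.05 to 0.11. The SPARCL1 and SPARC ranges per length, which overlapped in siNC, were apart in siZCC, at 332 to 348 and 282 to 319 RPKM. That order depends on the merged exon lengths used, 3477 bases for SPARCL1 and 4831 for SPARC. In CPM, uncorrected for length, SPARC lay above SPARCL1 in both groups.

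The glypicans differed in direction. GPC6 (ENSG00000183098, chromosome 13) ran from 58.3 through 68.3 to 70.4 CPM in siNC and from 73.1 through 77.0 to 79.6 CPM in siZCC. The groups were apart, and the log2 fold change was 0.20 (SE 0.0404); within the 6 libraries of high IL1B it was 0.22 and did not pass. The antisense genes within it, GPC6-AS1 and GPC6-AS2, had at most 3 counts in any library. GPC4 (ENSG00000076716, chromosome X) ran from 104 through 123 to 138 CPM in siNC and from 92.1 through 108 to 115 CPM in siZCC. The groups overlapped and the log2 fold change of -0.19 (SE 0.0720) did not pass. It did pass with no filter on low counts (-0.20), with DESeq2's Wald test (-0.19), with a block for the IL1B level (-0.19), and without siNC replicate 2 (-0.22) or 5 (-0.23).

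**Figure D3:**
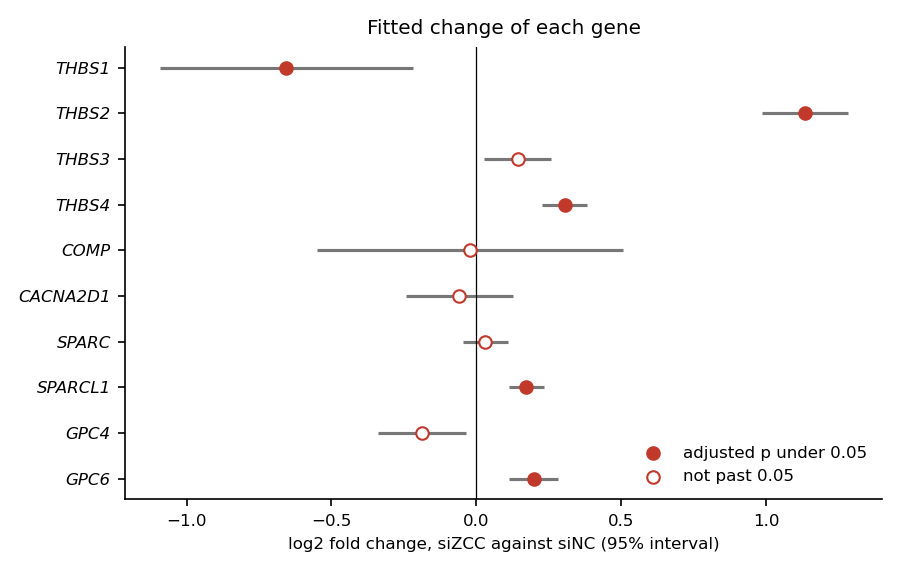
Fitted log2 fold change of each gene, siZCC against siNC, with its 95% interval over all 12 libraries; filled points passed an adjusted p of 0.05. THBS2 at 1.13 and THBS1 at -0.66 lie on either side of 0, and THBS1 and COMP have the widest intervals.

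How the genes varied among libraries of the same group was not used in choosing them. Over the 36 pairs of the 9 genes without COMP, THBS2 and THBS4 had the highest r of group-centred log2 CPM over the 12 libraries (0.895), though within either group alone other pairs had a larger r. Pearson's r of their log2 CPM was 0.905 in siNC (n = 6, exact permutation p 0.00972, adjusted 0.257; Spearman's rho 0.886, exact permutation p 0.0333, adjusted 0.343). In siZCC it was 0.871 (n = 6, exact permutation p 0.0222, adjusted 0.257; rho 0.886, exact permutation p 0.0333, adjusted 0.343). Without the 2 libraries farthest from the median of THBS2, r was 0.887 in siNC and 0.424 in siZCC. Dropping the farthest libraries narrows the range, so the lower r cannot tell whether the siZCC relation rested on them. THBS1 and GPC4 had r = 0.926 in siNC (n = 6, exact permutation p 0.0306, adjusted 0.275; rho 0.943, exact permutation p 0.0167, adjusted 0.343) and 0.699 in siZCC (n = 6, exact permutation p 0.131, adjusted 0.396; rho 0.657, exact permutation p 0.175, adjusted 0.450). Without the 2 farthest libraries r was 0.981 and 0.509. Of 72 relations, 9 had an unadjusted p under 0.05 and 0 an adjusted one. THBS1 and THBS2 were not closely related, with r = -0.47 in siNC and -0.05 in siZCC.

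THBS1 also varied with markers of fibroblasts, pericytes and smooth muscle. The summed level of 11 such genes, led by FN1, ACTA2, TAGLN and COL1A1, ran from 662 to 1076 CPM in siNC and from 510 to 794 CPM in siZCC. With the log2 of that sum, THBS1 had r = 0.892 in siNC (n = 6, exact permutation p 0.0208, adjusted 0.167; rho 0.829, exact permutation p 0.0583, adjusted 0.300) and 0.973 in siZCC (n = 6, exact permutation p 0.00139, the smallest that 6 libraries can give, adjusted 0.1; rho 1.0, exact permutation p 0.00278, adjusted 0.133). Without the 2 libraries farthest from the median sum r was 0.864 and 0.998. The relation was not particular to THBS1. With the same sum GPC4 had r = 0.817 in siNC and 0.804 in siZCC, and THBS3 0.886 and 0.685. Without the 2 farthest libraries the siZCC values were -0.026 and -0.011. THBS2 had r = -0.40 in siNC and -0.11 in siZCC. THBS1 also had r = 0.867 in siNC and 0.027 in siZCC with the sum of oligodendrocyte lineage markers. With the sum of endothelial markers it had 0.797 and 0.555. Of 144 relations of 9 genes with 8 marker sums in 2 groups, 26 had an unadjusted p under 0.05 and 0 an adjusted one.

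**Figure D4:**
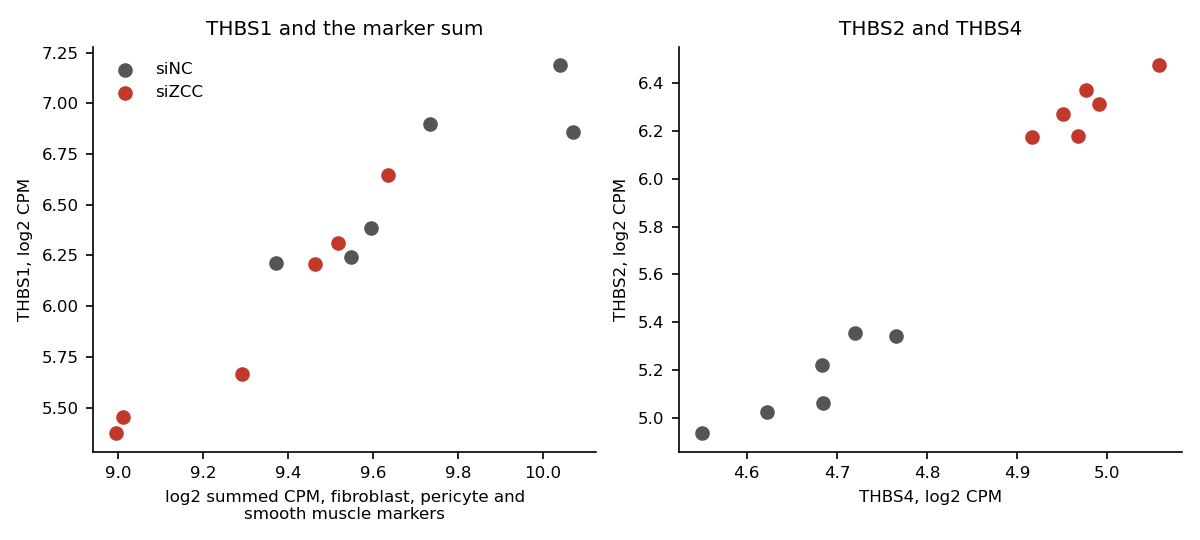
Left, log2 CPM of THBS1 against the log2 summed CPM of 11 fibroblast, pericyte and smooth muscle markers; right, log2 CPM of THBS2 against THBS4; 1 point per library, siNC grey and siZCC red. On the left THBS1 is higher where the marker sum is higher within each group (r = 0.892 in siNC and 0.973 in siZCC), and on the right the groups are apart on both axes.

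Those 11 markers differed between the groups too. In siZCC, 1 rose and 5 fell (median log2 fold change -0.31). Of all genes tested, 11.4% passed higher and 10.8% lower, and nothing is read from the counts of markers given here. PDGFRB, a pericyte receptor, rose by 0.42 (SE 0.0498), while the contractile genes TAGLN (-0.75, SE 0.117) and ACTA2 (-0.57, SE 0.0821) fell. RGS5, another pericyte marker, fell by 0.31 (SE 0.0670). The fibroblast markers DCN (-0.21, SE 0.0706) and LUM (-0.16, SE 0.0470) fell too. TWIST1 and COL1A2 were below 1 CPM in the mean of either group, and COL1A1 had a BCV of 48.1%. The part of these cells or of a contractile state in the THBS1 difference was not tested. Of 12 astrocyte markers, 5 rose and 2 fell (median 0.07), with a summed level of 2332 to 2625 CPM in siNC and 2408 to 2789 CPM in siZCC. ALDOC (0.98, SE 0.0877) and SLC1A3 (0.30, SE 0.0526) rose, the water channel AQP4 fell by 0.21 (SE 0.0575) and CD44 by 0.56, and GFAP, at 0.09 (SE 0.109), and SOX9, at 0.05 (SE 0.0351), did not pass. With the astrocyte sum THBS1 had r = 0.962 in siNC (n = 6, exact permutation p 0.00972, adjusted 0.117; rho 0.943, exact permutation p 0.0167, adjusted 0.218; r = 0.942 without the 2 farthest libraries) and 0.0050 in siZCC (n = 6, exact permutation p 0.997, adjusted 0.997; rho 0.314, exact permutation p 0.564, adjusted 0.725; r = -0.19). The part of astrocyte content in the THBS1, THBS2, THBS4, SPARCL1 and GPC6 differences was not tested. All 6 proliferation markers fell (median -0.41), and neuron markers had 1 higher and 3 lower of 10 (median -0.08).

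Genes whose libraries deviated most like those of THBS1, by Pearson's r of group-centred log2 CPM over the 12 libraries among 12625 genes of at least 5 CPM, were MYH9, non-muscle myosin heavy chain (r = 0.950), TRAM2, which acts in collagen synthesis (0.943), and ITGA11, a collagen-binding integrin (0.937). For THBS2 they were PAQR8, a membrane progestin receptor (0.917), RASSF10 (0.912) and AC135506.1 (0.900). For SPARCL1, CREB3L4 (0.914) and TOMM40L (0.913) were among the closest. These are descriptions: the points share library and depth, and the genes were the closest of many.

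Genes that act with the set were then counted, from lists chosen with earlier results of these data known. Of all genes tested, 11.4% passed higher and 10.8% lower in siZCC. Those shares stand beside the counts of every list below, and nothing is read from the counts. Of 24 thrombospondin receptors and partners, 6 rose and 5 fell, with a median log2 fold change of -0.03. The integrins fell where they passed, among them ITGB5 (-0.23, SE 0.0345) and ITGB1 (-0.21, SE 0.0552), both subunits through which thrombospondins bind cells. Syndecans, heparan sulfate carriers, split: SDC3 rose by 0.32 (SE 0.0401) and SDC1 by 0.18 (SE 0.0431), and SDC2 fell by 0.32 (SE 0.0853). STIM1, an endoplasmic reticulum calcium sensor, rose by 0.12 (SE 0.0257). CD47, a THBS1 receptor, was at -0.13 (SE 0.0589) and CD36 at -0.33 (SE 0.146), and neither passed.

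Of 13 glypicans, glypican receptors and pentraxins, 7 rose and 2 fell, with a median of 0.21. GPR158, an orphan receptor that binds GPC4, rose from 28.4 ± 2.12 to 38.8 ± 3.17 CPM (log2 fold change 0.45, SE 0.0554), and the receptor phosphatase PTPRF rose by 0.21 (SE 0.0357). LRRTM4, a postsynaptic glypican receptor, fell by 0.26 (SE 0.0477). Among the other glypicans GPC5 rose by 0.36 (SE 0.0842) at about 2 to 3 CPM, and GPC3 fell by 0.28 (SE 0.0643).

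Of 10 relatives of SPARC and partners of hevin, 3 rose and 4 fell, with a median of 0.13. SMOC1 rose by 0.31 (SE 0.0404) and SPOCK2 by 0.25 (SE 0.0440). FSTL1, another secreted relative, fell from 545 ± 59.3 to 386 ± 37.0 CPM (-0.50, SE 0.0692). SPOCK3 fell by 0.26 (SE 0.0480), and the scarce SMOC2 fell from 1.34 ± 0.228 to 0.499 ± 0.254 CPM (-1.41, SE 0.236). NLGN2, the neuroligin of inhibitory synapses, rose by 0.18 (SE 0.0339).

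Of 24 other glial synapse factors 23 were tested, TNF being too low. Here 11 rose and 5 fell, with a median of 0.10. BCAN, a perineuronal net proteoglycan, rose from 881 ± 55.2 to 1382 ± 176 CPM (0.65, SE 0.0669), APOE by 0.48 (SE 0.0545) and MERTK, an engulfment receptor, by 0.42 (SE 0.0459). BDNF, a neurotrophin, fell from 12.1 ± 0.949 to 8.35 ± 0.953 CPM (-0.53, SE 0.0711). LGI1, a secreted synaptic organizer, fell by 0.32 (SE 0.0483) and the matricellular CCN1 by 0.49 (SE 0.0958).

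Of 22 other matricellular genes and genes with type 1 repeats, 20 were tested, and 7 rose and 5 fell, with a median of 0.05. THSD4, a microfibril-associated protein with type 1 repeats, rose from 7.90 ± 0.407 to 12.8 ± 0.792 CPM (0.70, SE 0.0507), SPON1, a spondin, by 0.36 (SE 0.0539) and TNXB, a tenascin, by 0.33 (SE 0.0516). The protease ADAMTS12 fell by 0.32 (SE 0.0475), THSD1 by 0.32 (SE 0.0535) and the Wnt enhancer RSPO2 by 0.46 (SE 0.0784). For the genes of these lists named one by one with a fold change as rising or falling, adjusted p in edgeR's quasi-likelihood test ran up to 0.0129. In every list of receptors, relatives or partners genes passed in both directions.

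**Figure D5:**
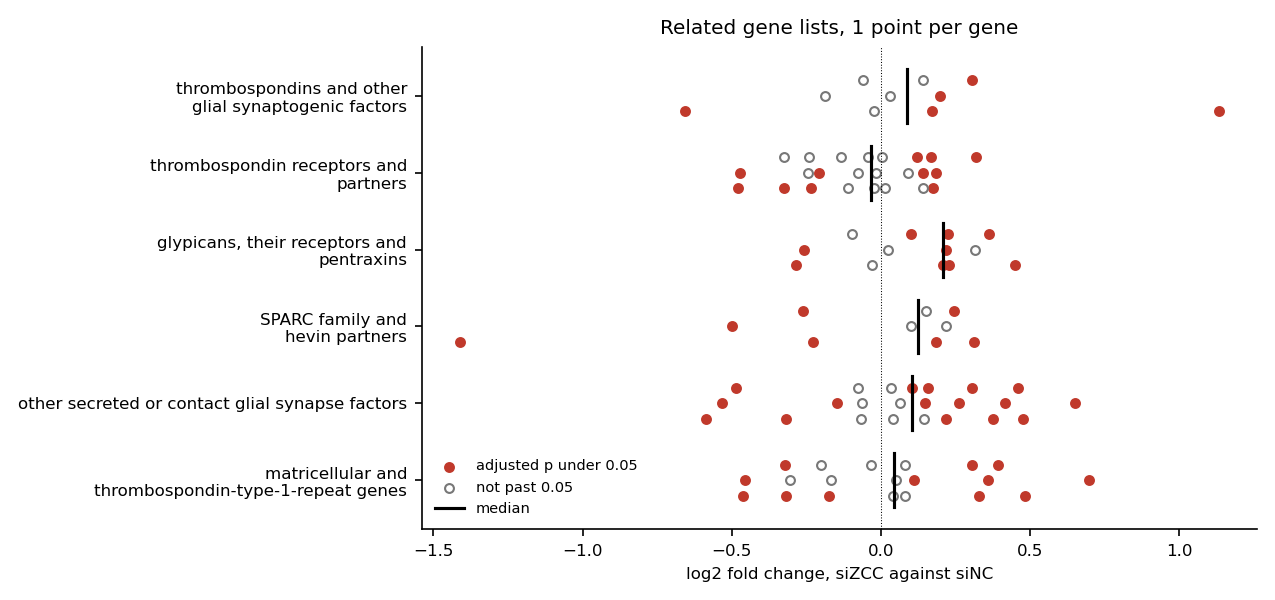
Log2 fold change, siZCC against siNC, of each tested gene in the set itself and in 5 related lists; red points passed an adjusted p of 0.05, open points did not, and a bar marks each list's median. Medians lie between -0.03 and 0.21, and THBS2 (1.13) and SMOC2 (-1.41) are the farthest points on either side.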

How the data were processed

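The authors deposited whole-number counts per gene symbol, 1 column per library. Per the submitters' processing notes, bcl2fastq 2.17, STAR 2.7.6a, featureCounts 2.0.1 and GRCh38 were used; the annotation and strand setting are not given in the sources used here. Libraries were made with a directional NEBNext kit after Qiazol lysis, per the labels' protocols. Groups and replicate numbers came from the titles.

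Counts were analysed in R 4.3.3 with edgeR 4.0.16. filterByExpr kept 24671 genes, TMM scaled them, and siZCC was compared with siNC over all 12 libraries by the quasi-likelihood test (glmQLFit, glmQLFTest), adjusted by Benjamini-Hochberg with a threshold of 0.05. The standard error is the log2 fold change divided by the square root of F. Log2 CPM has a prior count of 2. The script was checked on simulated counts. Alternatives were other scalings and filters, DESeq2 1.42.0, limma 3.58.1 voom, a replicate block, a block by IL1B level and leaving out each library; fits within each IL1B level were added after seeing the data. Correlations within a group are tested by exact permutation, two-sided, adjusted within each family. GENCODE 29 gave positions and lengths. Sequences of promoters are from RefSeq.

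The genes, related lists and marker lists were chosen with earlier results of these data known. The genes named are the 10 of the set, ZCCHC17, in each related list up to 3 passing genes per direction with the smallest p, the 3 genes most like THBS1, THBS2 and SPARCL1, and tested overlapping genes, of which some results are not reported here; further list members and markers were named after their values were seen. Replicates of each group differed by more than counting error (chi-square divided by its degrees of freedom 4.72 to 22.3 over pairs).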

Additional observations from a re-analysis of the deposited data

Results flagged for a closer look

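In 118 groups of 6 libraries (library totals, log2 CPM of the named genes and marker sums), 5 had a library far from the other 5 (its gap to the nearest of them, as a share of the group's range, was above Dixon's 95% critical value); chance gives about 1 in 20. GPC6 was lowest in siNC replicate 3, at 5.86 log2 CPM against 6.05 to 6.14 in the other 5; without that library its log2 fold change was 0.16. Within siNC, depth was lowest for replicate 4, with 90756000 counts where the other 5 had 109974000 to 120023000. The siZCC libraries went lower, from 76115083 to 105389055. Within its group, SMOC2 was lowest in siNC replicate 5 (-0.11 log2 CPM, others 0.43 to 0.67), MTX1 lowest in siZCC replicate 2 (3.56, others 3.69 to 3.75) and PAQR8 highest in siZCC replicate 4 (5.35, others 5.19 to 5.23).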

How the results depend on the processing

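Of 1099 values of 50 single genes under an alternative, 1049 kept their direction and side of the threshold, 34 lost a call, 7 gained one and 9 reversed. Under other scalings and filters, DESeq2, voom and the IL1B block, 4785 to 5930 genes passed, against 5481. Same-numbered replicates did not deviate together over all genes kept (r -0.077 to 0.018). The labels do not say whether the numbers pair the libraries, and so small an r cannot exclude it. With a replicate block 4902 genes passed, 5 of the 10 among them. Within the 6 libraries of high IL1B 2043 genes passed (3 of the 10) and within those of low IL1B 1602, with fewer libraries in each fit. Low IL1B libraries alone gave 4 calls among thrombospondin receptors, 3 among glypicans, 9 among other synapse factors and 7 among matricellular genes. Directions reversed for COMP (0.38) and MTX1 (-0.0070) at low IL1B and for SPARC (-0.013) at high IL1B. Leaving out each library, 4484 to 5626 genes passed and 4 to 6 of the 10, with COMP at -0.18 to 0.092 and CACNA2D1 at -0.11 to 0.0011. COMP gave no value with a mean count of at least 50. Depth limits COMP alone among the 10, with at most 21 counts per library.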

Other observations

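SPARC, which did not pass between the groups, varied with several marker sums among libraries of the same group. Against the log2 summed CPM of 10 neuron markers, Pearson's r was -0.98 in siZCC (n = 6, exact permutation p 0.00139, adjusted 0.1; rho -1.0, exact permutation p 0.00278, adjusted 0.133) and -0.83 in siNC (n = 6, exact permutation p 0.0361, adjusted 0.235; rho -0.77, exact permutation p 0.103, adjusted 0.352). Without the 2 libraries farthest from the median sum r was -0.97 in siZCC and 0.288 in siNC. The siNC relation was thus not seen without those libraries, though dropping them also narrows the range. The relation was not particular to neuron markers. With endothelial markers r was 0.974 in siNC and 0.914 in siZCC (0.938 and 0.794 without the 2 farthest libraries). With oligodendrocyte lineage markers it was 0.922 and 0.883 (0.189 and 0.848). With astrocyte markers r was 0.764 and 0.928 (0.753 and 0.857), and with radial glia and progenitor markers 0.933 and 0.680 (0.968 and 0.438). These relations were noticed among 144 and none passed adjustment.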
